A study of Mus musculus with 9 samples.

Results

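Interferon-stimulated genes are the genes that cells switch on when an interferon binds its receptor, and 41 of them, chosen by symbol, were followed through gels of 3 stiffnesses. Of these, 39 are among the 22173 genes of the count files, and Mx1 and Mx2 were not analysed here. The cells were wild-type neutrophils from mouse bone marrow. Culture in GelMA, a hydrogel of crosslinked gelatin, lasted 2 days under RPMI medium with 10% serum. Low gels, the control, had an elastic modulus of 1.5 kPa, middle gels of 2.6 kPa and high gels of 5.7 kPa, and each gel gave 3 poly(A) RNA libraries, numbered 1 to 3. The question named in the study's title is neutrophil polarization under different stiffness. A library is named here by its gel and number, such as high 1. The labels name no interferon treatment in any group.

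Type I interferons bind a receptor made of IFNAR1 and IFNAR2, whose kinases JAK1 and TYK2 activate a complex that includes STAT2 and IRF9. That complex binds the interferon-stimulated response element (ISRE), while the signal of interferon gamma acts through the gamma-activated site (GAS). The induced proteins block viral replication, tag proteins with ISG15, attack vacuoles that hold microbes, or sense nucleic acids, and in mouse tumours interferon beta is known to favour the pro-inflammatory state of neutrophils.

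The letters of these elements stand in the upstream sequences of many of the genes, shown here because they are the DNA through which the signal is known to act. RefSeq windows from 250 bases before to 50 bases after the annotated start (build GRCm38.p6) were found for 31 of the 39 genes. No window was read for Dhx58, Ifi204, Iigp1, Oas2, Parp14, Rtp4, Usp18 and Zbp1. The letters searched on both strands, overlapping matches allowed, were GAAANNGAAA for an ISRE-type match and TTCNNNGAA for a GAS-type match. Several windows were read for 5 of these genes, and a match in any of them counted. An ISRE-type match was found for 19 of the 31 genes (61.3%), against 3.99% of all 27025 genes with a window. A GAS-type match was found for 9 of 31 genes (29%), against 9.55% of all genes. Both stood in the same window for 6 of 31 (19.4%), against 0.54%. The 12 stretches below lie upstream of the annotated start and read 5′ to 3′ on the gene's own strand. They show members of the antiviral, ISG15, GTPase, transcription factor and chemokine classes, and capitals mark the matches:
Isg15, chr4:156200855-156200916, minus strand: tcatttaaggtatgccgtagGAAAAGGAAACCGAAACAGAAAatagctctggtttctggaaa
Ifit1, chr19:34640765-34640833, plus strand: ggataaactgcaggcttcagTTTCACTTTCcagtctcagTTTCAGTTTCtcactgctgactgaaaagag
Ifit3, chr19:34583353-34583436, plus strand: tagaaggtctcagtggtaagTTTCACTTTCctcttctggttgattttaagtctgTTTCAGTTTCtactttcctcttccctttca
Oas1a, chr5:120907526-120907565, minus strand: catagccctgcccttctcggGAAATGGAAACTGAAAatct
Rsad2, chr12:26456543-26456592, minus strand: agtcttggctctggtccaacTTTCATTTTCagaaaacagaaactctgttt
Bst2, chr8:71537567-71537628, minus strand: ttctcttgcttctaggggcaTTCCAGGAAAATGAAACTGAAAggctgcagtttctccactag
Irgm1, chr11:48871421-48871470, minus strand: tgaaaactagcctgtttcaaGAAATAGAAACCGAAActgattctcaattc
Tgtp2, chr11:49064253-49064313, minus strand: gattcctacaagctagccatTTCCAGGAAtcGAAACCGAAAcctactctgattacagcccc
Igtp, chr11:58199491-58199551, plus strand: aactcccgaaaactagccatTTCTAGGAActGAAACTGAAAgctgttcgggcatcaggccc
Stat2, chr10:128270256-128270305, plus strand: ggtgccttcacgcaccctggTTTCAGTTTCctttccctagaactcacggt
Irf1, chr11:53769904-53769952, plus strand: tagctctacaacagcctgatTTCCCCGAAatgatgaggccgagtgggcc
Cxcl10, chr5:92349073-92349122, minus strand: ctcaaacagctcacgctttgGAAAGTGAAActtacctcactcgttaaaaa

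In Isg15, 3 overlapping ISRE-type matches form 1 run, and Ifit1 and Ifit3 each carry 2 that are set apart and read on the opposite strand. The stretch of Ifit3b, the near copy of Ifit3, has the same letters as that of Ifit3. Bst2, Tgtp2 and Igtp hold a GAS-type match beside or overlapping the ISRE-type one, and the printed stretch of Irf1 holds a GAS-type match without an ISRE-type one. A match is a description of letters and does not show that a factor bound there.

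**Figure D1:**
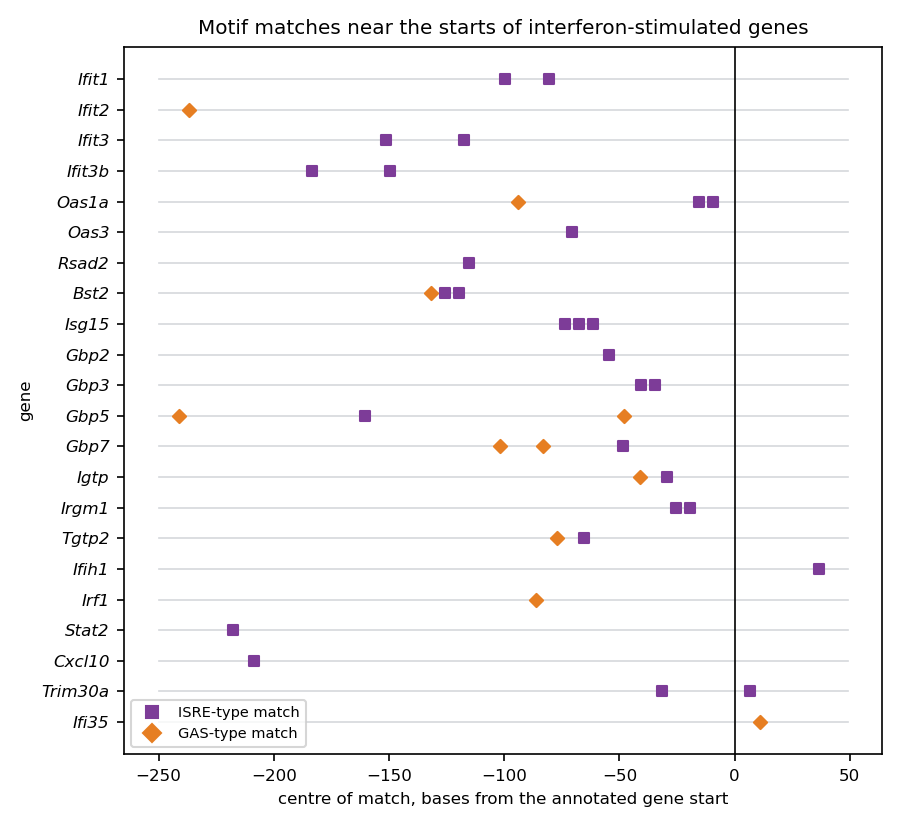
Position of each ISRE-type match (squares) and GAS-type match (diamonds) on the x axis, in bases from the annotated gene start (0), for the genes on the y axis whose window held a match. Of the 31 genes with a window, 19 held an ISRE-type match and 9 a GAS-type match, and most matches lie before the start.

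Before the results, the libraries themselves need a description, because those numbered 1 stand apart in all 3 gels. Depth was 13172879 to 19486546 counts per library, and all 39 genes passed the low-count filter that left 12094 genes, the lowest count of any of them in a library being 21. With the gel accounted for, 3619 genes (29.9%) were lower and 3550 (29.4%) higher in libraries numbered 1 than in those numbered 2, and 0 genes passed between numbers 3 and 2 (150 at an unadjusted p under 0.05, 1.24%). The defining neutrophil markers (14 of 14 in the files, S100a8 the most abundant) summed to 3617 to 5011 CPM (counts scaled to a common library size) in the 3 libraries numbered 1 and to 16900 to 24970 CPM in the other 6. Macrophage and monocyte markers (14 of 14, Gpnmb the most abundant) summed to 7496 to 8915 CPM in number 1 and to 5703 to 8534 CPM in numbers 2 and 3. Which cells that RNA came from was not tested. With the replicate number fitted, 8.73% of all genes were lower and 6.72% higher in high against low gels. Of the neutrophil markers 4 fell (Cxcr2, Retnlg, Ltf and Elane) and 1 rose (Lcn2). The sums of all 14 overlapped, with 5011 to 17510 CPM in high and 3617 to 24970 CPM in low gels. The macrophage and monocyte sums were 8440 to 8915 CPM in low, 6670 to 7496 CPM in middle and 5703 to 7907 CPM in high gels. In the same fit, 7 of these 14 fell in high against low gels (C1qa, C1qc, Mertk, Fcgr1, Ms4a7, Gpnmb and Ly6c2) and 2 rose (Adgre1 and Csf1r). Dendritic cell markers summed to 46.4 to 134.9 CPM in high against 87.9 to 159.6 CPM in low gels, T and NK cell markers to 3.20 to 8.43 against 6.94 to 35.7 CPM, and B cell markers to 38 to 173 against 58.9 to 222.7 CPM. Every marker list had a negative median log2 fold change in that fit, from -1.02 (T and NK cells) to -0.64 (dendritic cells). No marker of any list was at 0 in every library. What part the cell makeup has in the results below was not tested, and in bulk RNA fewer cells of a type and less RNA per cell cannot be told apart.

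The interferon-stimulated genes were, as a class, lower in stiffer gels, but with all 9 libraries in a fit without the replicate number none passed the test. Summed over the 39 genes, the level was 8852, 9568 and 9803 CPM in low gels 1 to 3, then 2810, 7273 and 7517 CPM in middle gels, and 2390, 5258 and 7073 CPM in high gels. Every middle and every high library lay below every low library, and middle and high libraries overlapped. The high gel held 27% of the low gel's summed level in number 1, 55% in number 2 and 72.2% in number 3. The middle gel held 31.7%, 76% and 76.7% in the same order.

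**Figure D2:**
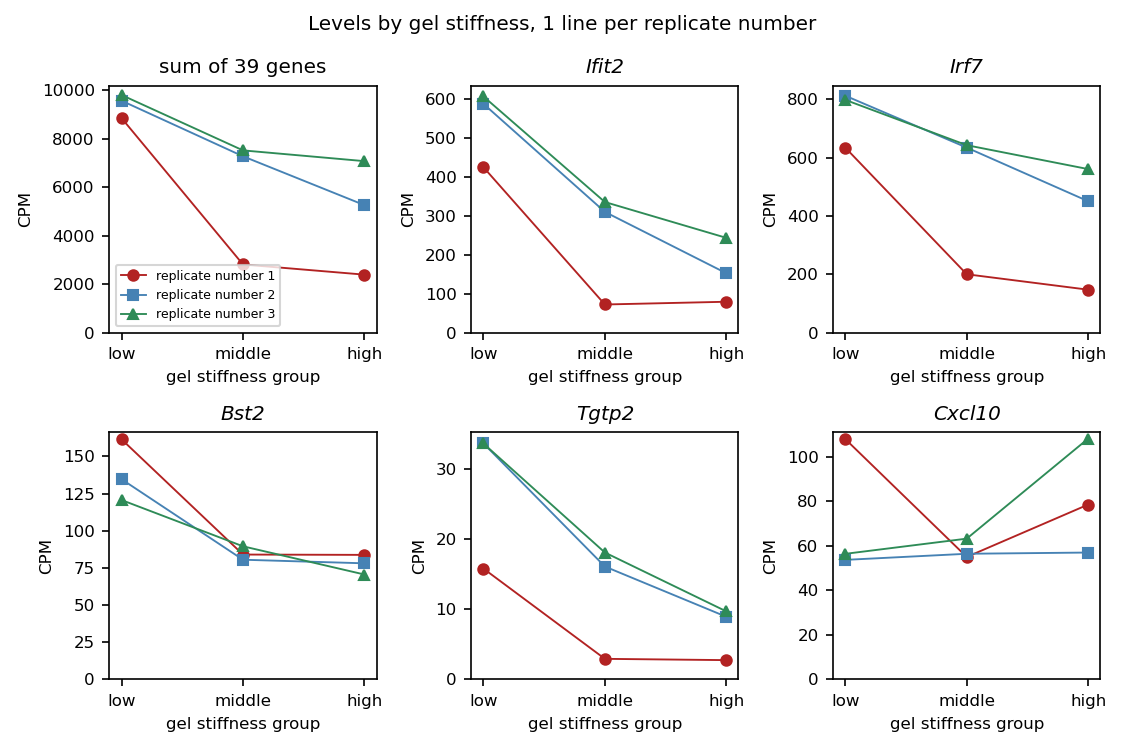
Level in CPM (y axis, from 0) against gel stiffness group (x axis) for the sum of the 39 genes and for 5 of them, with 1 line per replicate number. The sum was 2390, 5258 and 7073 CPM in high gels, against 8852, 9568 and 9803 CPM in low gels, and the line of number 1 is the lowest for Ifit2, Irf7 and Tgtp2 but not for Bst2 or Cxcl10.

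High against low gels is the widest step in stiffness. Without the replicate number, edgeR's quasi-likelihood test with Benjamini-Hochberg adjustment called 0 of the 39 genes lower (0.0413% of all tested genes were) and 0 higher (0.0496% were). At an unadjusted p under 0.05, 14 of the 39 were lower (4.31% of all genes) and 0 higher (3.41%), and DESeq2 called 5 lower (1.29% of all genes). The median log2 fold change of the 39 genes was -0.86, against 0.00417 over all tested genes, and 38 of 39 were below 0. With the replicate number as a block, 12 fell (8.73% of all genes did) and 0 rose (6.72% did), at a median of -1.05. The pairing check behind the block shows that number 1 stands apart, and cannot show that libraries sharing a number belong together. The 12 were Ifit2, Bst2, Iigp1, Irgm1, Tgtp2, Ifi47, Dhx58, Zbp1, Ifi204, Irf1, Stat2 and Ifi44. Without the block, their adjusted p in edgeR's test ran from 0.0915 (Bst2) to 0.958 (Zbp1). Below, "fell" and "rose" refer to this blocked fit unless another is named. The same holds for log2 fold changes, standard errors and adjusted p of single genes over all 9 libraries. Genes that came near the threshold in the blocked fit were far from it without the block. There, adjusted p in edgeR's test was 0.716 for Oasl2, 0.804 for Irf7, 0.418 for Isg15 and 0.511 for Igtp. The count of 12 turned on single libraries: it was 33 without low 1 (10.7% of all genes), and between 4 and 19 with any 1 of the other 8 left out (2.61% to 9.59%). The labels do not say that libraries of a gel came from separate mice or cultures, so p-values reflect no more than their spread, which may be technical.

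Counts that use no fit gave the same direction. Every high library lay below every low library for 24 of the 39 genes, against 6.76% of all tested genes. Within each of the 3 numbers the high gel was lower than the low gel for 34 of 39, against 24.8% of all genes.

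**Figure D3:**
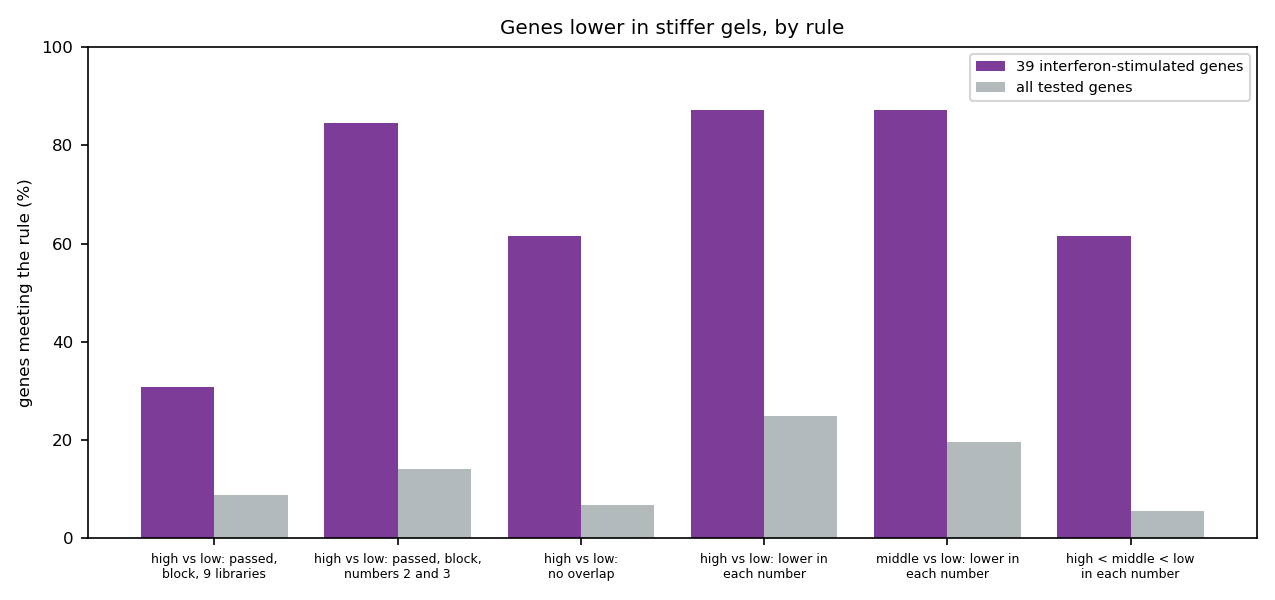
Percent of the 39 interferon-stimulated genes (left bar of each pair) and of all tested genes (right bar) that meet each rule for being lower in a stiffer gel. Every high library lay below every low library for 24 of 39 genes, against 6.76% of all tested genes, and 12 of 39 fell in the blocked fit, against 8.73%.

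The antiviral effectors act directly on viral RNA, protein or budding. Of the 12 measured, 2 fell in high against low gels, Ifit2 and Bst2 (8.73% of all genes did), and 0 rose (6.72% did). All 12 had a negative log2 fold change, with a median of -1.41. Ifit2, which binds RNA and blocks translation, had 426, 589 and 608 CPM in low gels 1 to 3, 72.3, 311 and 336 CPM in middle gels, and 79.3, 153 and 244 CPM in high gels. All 3 high libraries lay below all 3 low libraries, and the log2 fold change of high against low was -1.93 ± 0.39 (SE, adjusted p = 0.0325). Bst2, the tetherin that holds budding virions on the cell surface, had 162, 135 and 121 CPM in low, 83.9, 80.4 and 89.4 CPM in middle and 83.7, 78.0 and 70.4 CPM in high gels. Bst2 was the steadiest of these, its highest high library being 1.19 times its lowest, and it fell by 0.84 ± 0.10 on the log2 scale (adjusted p = 0.000442).

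The 2 most abundant effectors did not pass. Oasl2, a 2′-5′ oligoadenylate synthetase-like protein, had 579, 753 and 842 CPM in low, 169, 601 and 556 CPM in middle, and 119, 333 and 494 CPM in high gels. Its high libraries lay below its low libraries, with a log2 fold change of -1.44 ± 0.36 (adjusted p = 0.0568). Rsad2 encodes viperin, which makes a chain-terminating nucleotide, and had 1142, 624 and 642 CPM in low, 214, 392 and 416 CPM in middle, and 214, 290.1 and 419 CPM in high gels. Here low 1 was the highest library of all, and the log2 fold change was -1.44 ± 0.45 (adjusted p = 0.102). Cmpk2, the nucleotide kinase encoded beside Rsad2, averaged 56.3 ± 19.8 CPM in high and 141 ± 16 CPM in low gels (SD, n = 3 each; log2 fold change -1.41 ± 0.35, adjusted p = 0.0568 in edgeR's test). Ifit1, which binds viral RNA, and Ifit3, its partner, averaged 46.4% and 31.8% of their low-gel mean in high gels, with adjusted p of 0.12 and 0.0561. The synthetases Oas1a, Oas2 and Oas3, which make the activator of RNase L, and Oasl1 had log2 fold changes of -0.63 to -1.14 and none passed. Counts of Oas1a, Ifit3 and Ifit3b are uncertain, since 47.6%, 41.1% and 35.7% of the 75-base windows of their longest transcript also occur in Oas1g, Ifit3b and Ifit3.

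**Figure D4:**
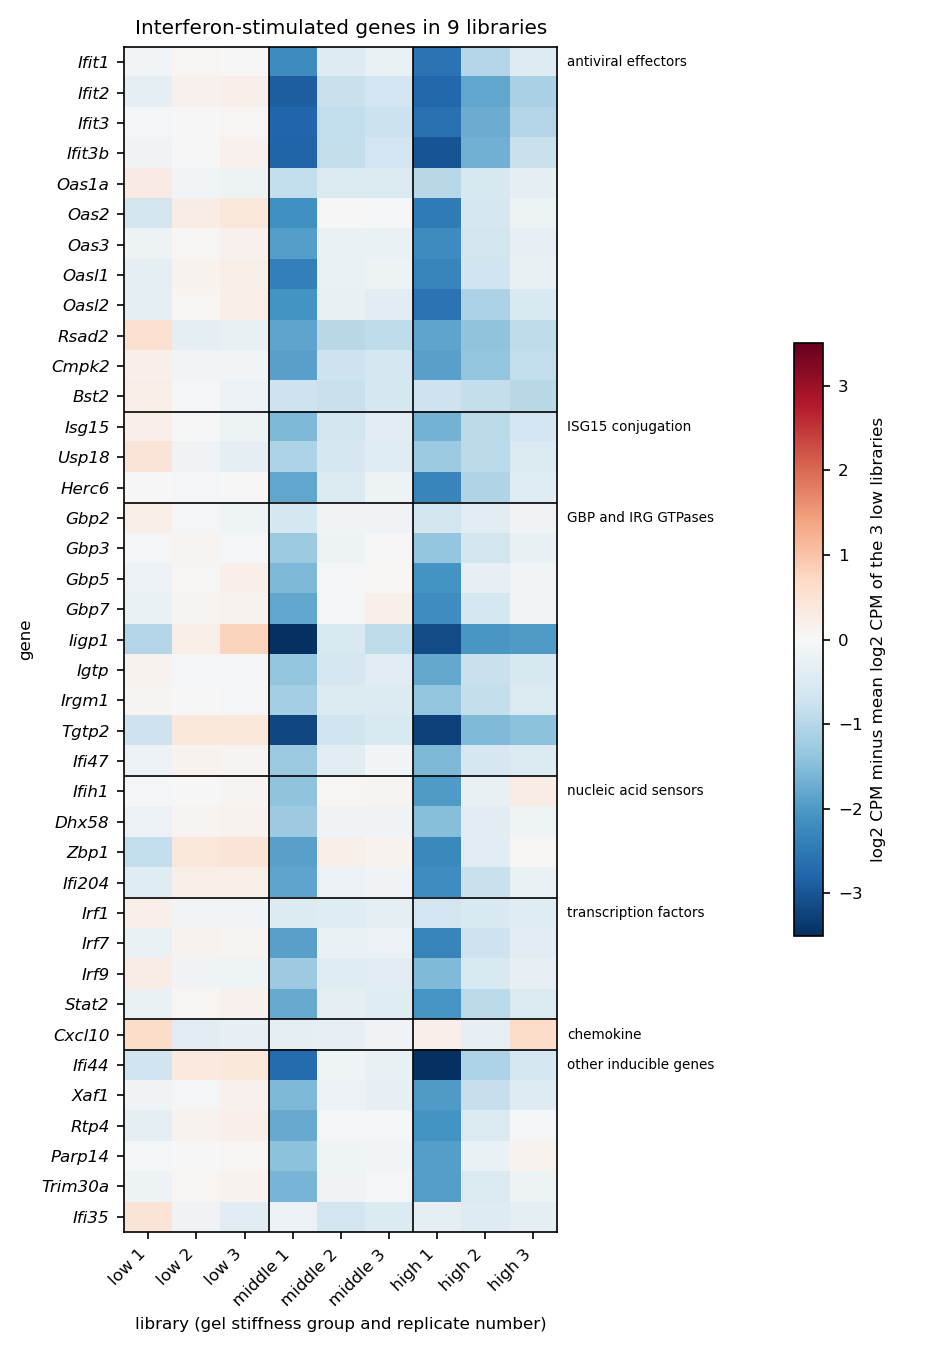
Log2 CPM of each gene (rows, by class) in each library (columns, low to high stiffness), minus the mean of its 3 low libraries; blue is lower and red higher. Middle 1 and high 1 are the darkest blue columns for most genes, numbers 2 and 3 of the same gels are paler, and Cxcl10 departs from the rest.

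ISG15 is a ubiquitin-like protein, HERC6 is the mouse ligase that attaches it and USP18 removes it and also damps the receptor. None of these 3 passed in either fit of all libraries, and all 3 were lower in high than in low gels within every number. Isg15 had 147, 130.0 and 114 CPM in low, 43.4, 82.9 and 98.9 CPM in middle and 41.2, 67.4 and 81.1 CPM in high gels, so high and low did not overlap (log2 fold change -1.12 ± 0.32, adjusted p = 0.0765). Usp18 had 190.0, 126 and 110 CPM in low, 65.5, 92.0 and 103 CPM in middle, and 56.0, 71.4 and 96.2 CPM in high gels. High and low were also apart, low 1 being the highest library (-0.96 ± 0.33, adjusted p = 0.128). Herc6 had 143, 138 and 143 CPM in low, 40.3, 101 and 125 CPM in middle, and 28.5, 68.0 and 105 CPM in high gels. The 3 low libraries of Herc6 were the closest of any of the 39 genes, 1.03 times apart, while its high libraries were 3.70 times apart (-1.29 ± 0.41, adjusted p = 0.11). Of its 75-base windows 22.4% also occur in Gm45193, so its count is uncertain.

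The guanylate-binding proteins (GBPs) and immunity-related GTPases (IRGs) assemble on vacuoles that hold bacteria and parasites. Of the 9 measured, 4 fell, Iigp1, Irgm1, Tgtp2 and Ifi47 (8.73% of all genes did), 0 rose (6.72% did), and the median was -0.91. All 4 that fell are IRGs, and Igtp, the fifth IRG, had -1.05 ± 0.30 (adjusted p = 0.0723). Iigp1, which disrupts the vacuole of Toxoplasma, had 11.3, 26.7 and 39.6 CPM in low, 1.55, 15.7 and 12.4 CPM in middle and 2.63, 5.6 and 5.76 CPM in high gels. High and low libraries did not overlap, and the high mean was 18% of the low mean, the lowest share of the 39 genes (log2 fold change -2.45 ± 0.37, adjusted p = 0.0061). Tgtp2, another vacuole-coating GTPase, had 15.8, 33.6 and 33.6 CPM in low, 2.89, 16 and 18 CPM in middle and 2.70, 8.88 and 9.65 CPM in high gels. It fell by 2.07 ± 0.24 on the log2 scale (adjusted p = 0.000856), but 85.2% of its 75-base windows also occur in Tgtp1, so its count is uncertain.

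The GTPase with the highest CPM, a scale that ignores transcript length, was Irgm1, a regulatory IRG that guards the cell's own membranes, with 173, 162 and 155 CPM in low, 71.2, 116 and 117 CPM in middle and 63.3, 92.2 and 115 CPM in high gels. High and low did not overlap and it fell by 0.91 ± 0.19 (adjusted p = 0.0206). Ifi47 had 91.3, 113 and 112 CPM in low, 42.4, 81.1 and 97.5 CPM in middle, and 35.6, 70.1 and 76.0 CPM in high gels. Again every high library was the lower one, and it fell by 0.87 ± 0.16 (adjusted p = 0.00805). None of the 4 GBPs passed: Gbp2, Gbp3, Gbp5 and Gbp7 had log2 fold changes of -0.40 to -0.97 with adjusted p of 0.0567 to 0.172. A difference between GBPs and IRGs was not tested.

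Among the nucleic acid sensors, 3 of 4 fell, Dhx58, Zbp1 and Ifi204 (8.73% of all genes did), and Ifih1 did not pass. Ifi204, a sensor of DNA in the nucleus and cytosol, had 466, 726 and 725 CPM in low, 173, 541 and 575 CPM in middle, and 138, 363 and 533 CPM in high gels. High 3 exceeded low 1, so the groups overlapped, yet within each number the high gel was lower (-1.09 ± 0.26, adjusted p = 0.0414). In Ifi204, 20.7% of the 75-base windows also occur in other genes, and 17.7% of all its windows occur in Ifi211, so its count is uncertain. Zbp1, a sensor of left-handed nucleic acids that can start necroptosis, had 99.8, 238 and 249.8 CPM in low, 48.2, 210.1 and 199 CPM in middle and 37.7, 137 and 185 CPM in high gels. Its libraries overlapped in the same way, low 1 lying below high 2 and high 3 (-0.87 ± 0.19, adjusted p = 0.0215). Dhx58 encodes LGP2, a helper of the RNA sensors, and averaged 63.1 ± 26.4 CPM in high and 94.1 ± 11.6 CPM in low gels (SD, n = 3 each; -0.68 ± 0.19, adjusted p = 0.049986 in edgeR's test). Ifih1 encodes MDA5, a sensor of long double-stranded RNA, and had 158, 165 and 178 CPM in low, 63.1, 174 and 179.5 CPM in middle, and 41.8, 140 and 198.5 CPM in high gels. Its high 3 was the highest library of all and its high 1 the lowest (adjusted p = 0.379).

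Of the 4 transcription factors, Irf1 and Stat2 fell (8.73% of all genes did) and Irf7 and Irf9 did not pass. Irf7, the factor that amplifies interferon alpha production, had the highest level per transcript length of the 39 genes, 194 ± 106 FPKM in high and 391 ± 52.8 FPKM in low gels (SD, n = 3 each). Its counts were 635, 812.5 and 798 CPM in low, 200.0, 634 and 643 CPM in middle, and 147, 450.4 and 561 CPM in high gels. All high libraries lay below all low libraries, with high 1 the lowest (-1.19 ± 0.35, adjusted p = 0.0869). Stat2, a subunit of the type I complex, had 176, 217 and 229 CPM in low, 60.5, 165 and 152 CPM in middle, and 49.5, 107 and 146 CPM in high gels. It too did not overlap between high and low and fell by 1.18 ± 0.26 (adjusted p = 0.0332). Irf1, a factor that interferon gamma induces, had 155, 129 and 128 CPM in low, 99.1, 102 and 107 CPM in middle, and 85.7, 93.8 and 102 CPM in high gels. The high libraries of Irf1 were 1.19 times apart and all below the low ones, and it fell by 0.55 ± 0.10 (adjusted p = 0.00479). Irf9, the DNA-binding part of the type I complex, averaged 105 ± 41.5 CPM in high and 171 ± 27.9 CPM in low gels (SD, n = 3 each; -0.81 ± 0.36, adjusted p = 0.203 in edgeR's test).

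Cxcl10, the chemokine that draws CXCR3-bearing T cells, was the exception in direction. It had 108, 53.7 and 56.4 CPM in low, 55.0, 56.4 and 63.2 CPM in middle, and 78.6, 57.0 and 108 CPM in high gels. The high and low libraries overlapped fully, and its log2 fold change of 0.17 ± 0.30 did not pass (adjusted p = 0.751). Its sign depended on single libraries: it ranged from -0.25 to 0.58 when libraries or numbers were left out.

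All of the remaining 6 genes had a negative log2 fold change in high against low gels. Ifi44, an interferon-induced cytoplasmic protein, had 22.3, 45.7 and 46.5 CPM in low, 5.55, 32.4 and 30.3 CPM in middle, and 2.77, 17.0 and 23.5 CPM in high gels. High 3 was just above low 1, and Ifi44 was the only 1 of the 6 that fell, against 8.73% of all genes (-1.66 ± 0.38, adjusted p = 0.0405). Parp14, an ADP-ribosyltransferase, had 543.5, 583 and 597 CPM in low, 214, 519 and 533 CPM in middle, and 151, 485 and 628 CPM in high gels. Its high 3 was the highest library and its high 1 the lowest, so high and low overlapped, while every middle library lay below every low one (-0.69 ± 0.40, adjusted p = 0.319). Trim30a, a mouse TRIM protein that restrains NF-kB signalling, had 437, 518 and 534 CPM in low, 161, 457 and 471 CPM in middle and 129, 348 and 439 CPM in high gels. High 3 lay between low 1 and low 2 (-0.90 ± 0.32, adjusted p = 0.131). Xaf1, Rtp4 and Ifi35 had log2 fold changes of -1.08, -0.91 and -0.38 and none passed.

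By mean level, the middle gel lay between the others for most genes. Against low gels, 0 of 39 were called lower without the replicate number (0% of all genes were) and 0 higher (0% were), with 8 lower at an unadjusted p under 0.05 (1.65% of all genes) and 1 called lower by DESeq2 (0.24%). In the blocked fit 2 fell, Bst2 (-0.71 ± 0.10, adjusted p = 0.00676) and Tgtp2 (-1.33 ± 0.23, adjusted p = 0.022), against 1.03% of all genes, and 0 rose (0.81%). All 39 had a negative log2 fold change, at a median of -0.74, against 0.00618 over all tested genes. Without low 1 the count was 13 (2.94% of all genes), without high 1 it was 4 (2.27%), and without any 1 of the other 7 libraries it was 0 or 1 (0.114% to 1.02%). Every middle library lay below every low library for 19 of 39 genes (4.2% of all), and within each number the middle gel was lower for 34 of 39 (19.6% of all).

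With all libraries fitted, the median difference between the 2 stiffer gels was smaller than between middle and low gels. In number 2 alone it was larger, at -0.46 against -0.39. For high against middle gels 0 of 39 passed in either direction, where 0% of all genes were lower in either fit and 0.0165% higher in the blocked one. At an unadjusted p under 0.05 there were 0 lower without the number (0.728% of all genes) and 2 with it, Iigp1 and Tgtp2 (5.99%). The DESeq2 test called 0 as well. The median of the 39 was -0.27 in the blocked fit, and no gene had every high library below every middle library (2.54% of all genes did). Within each number, high was below middle for 27 of 39 (17.1% of all), and high below middle below low held in all 3 numbers for 24 of 39 (5.61% of all). High and middle gels were each compared with the same low libraries.

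The size of the difference from low gels went with the replicate number. The median log2 difference of the 39 genes, high minus low gel, was -1.85 in number 1, -0.80 in number 2 and -0.44 in number 3. For middle minus low it was -1.51, -0.39 and -0.31. For high minus middle it was -0.25, -0.46 and -0.11, and number 2 held the largest fall for 27 of 39 genes. Number 1 held the largest fall of the 3 for 38 of 39 genes in high minus low, Iigp1 being the exception, and for 39 of 39 in middle minus low. The share of all genes is not given for these counts of largest falls, so they do not show a trait particular to the 39. Whether the effect differs between numbers could not be tested, since 9 libraries in 9 combinations of gel and number leave no residual.

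**Figure D5:**
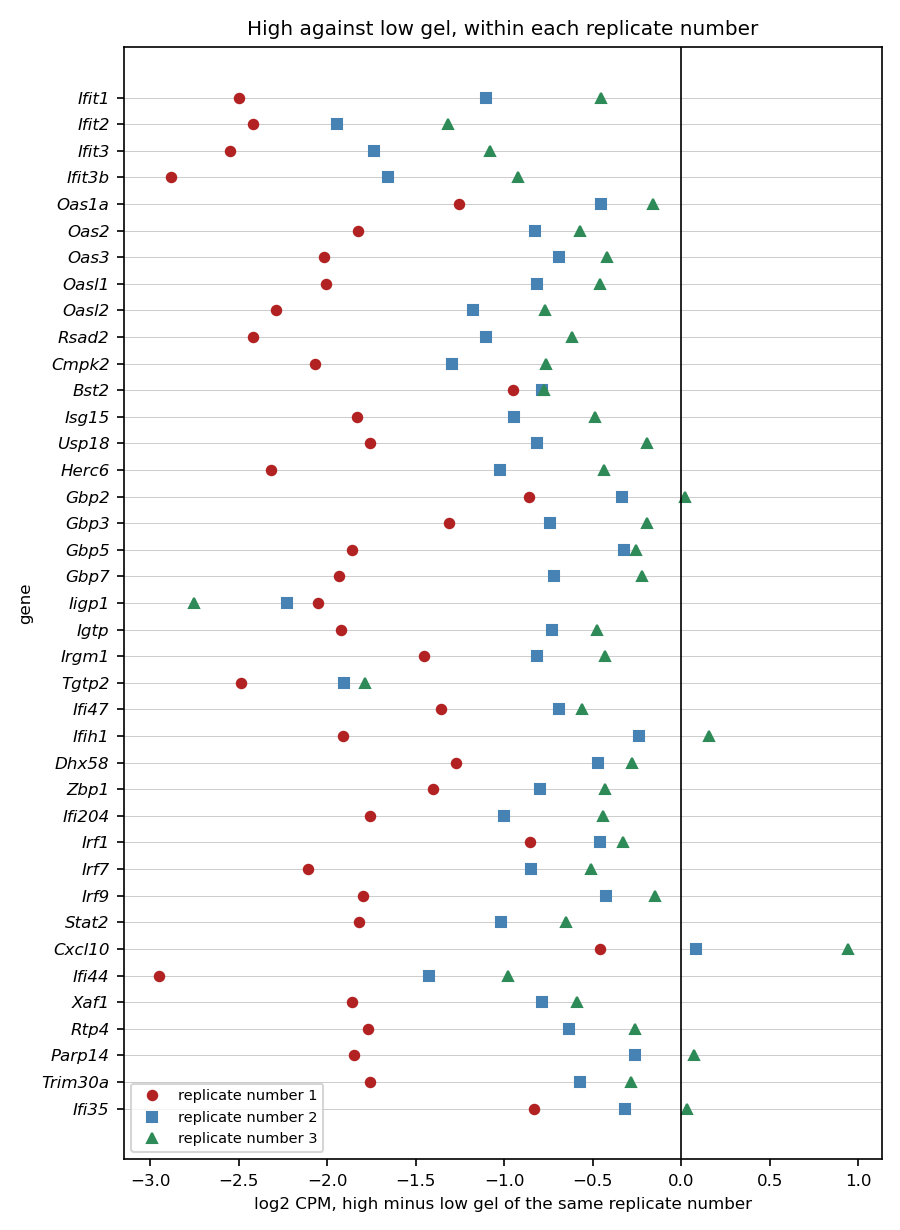
Difference in log2 CPM, high minus low gel of the same replicate number (x axis), for each gene (y axis), with circles, squares and triangles for numbers 1, 2 and 3. The medians are -1.85, -0.80 and -0.44, all 39 circles are below 0, and Cxcl10 has a square and a triangle above 0.

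Library 1 was below libraries 2 and 3 for nearly all of these genes in the stiffer gels, and the genes went both ways in the low gel. The ratio of library 1 to the mean of libraries 2 and 3 had a median of 0.358 over the 39 genes in middle gels and 0.392 in high gels, against 0.878 in low gels, where 14 of the 39 were above 1 and the ratios ran from 0.341 (Iigp1) to 1.96 (Cxcl10). Over all tested genes the medians were 1.00, 0.991 and 1.01 in middle, high and low gels. Fitted over all gels, 17 genes were lower in number 1 than in number 2 (29.9% of all genes) and Ifi35, which binds interferon-induced NMI, was higher (29.4%). In number 1 against number 3, 20 were lower (30.6%) and Ifi35 was again higher (30.5%). Between numbers 3 and 2, 0 of 39 passed, and 0 did at an unadjusted p under 0.05 (1.24% of all genes). The genes lower in number 1 were 43.6% and 51.3% of the 39.

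Without the libraries numbered 1 the calls were many more. Libraries 2 and 3 of a gel lay close together, with 0 of all tested genes passing between these numbers. The p-values here reflect no more than that narrow spread. In numbers 2 and 3 alone, with 2 libraries per gel, 33 of 39 genes fell in high against low gels (14.1% of all genes) and 0 rose (11.9%), at a median of -0.63. By class these were 12 of 12 antiviral effectors, 3 of 3 of the ISG15 system, 7 of 9 GTPases, 3 of 4 sensors, 4 of 4 transcription factors and 4 of 6 others. Tgtp2 fell by 1.86 ± 0.13 (adjusted p = 6.46e-08) and Iigp1 by 2.53 ± 0.20 (adjusted p = 5.46e-07), while Gbp2, Gbp5, Ifih1, Cxcl10, Parp14 and Ifi35 did not pass. Irf7 and Oasl2, which did not pass with all libraries, fell by 0.68 ± 0.09 (adjusted p = 5.28e-05) and 0.96 ± 0.14 (adjusted p = 0.000401). In middle against low gels 18 fell (3.58% of all genes) and 0 rose (3.18%). In high against middle gels 10 fell (3.68%) and 0 rose (3.68%), the 10 being Ifit2, Ifit3, Oasl2, Cmpk2, Gbp7, Iigp1, Tgtp2, Irf7, Ifi44 and Xaf1.

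Other genes that interferon induces, taken from a list outside the 39, mostly went the same way. That list was chosen with earlier results of these data known, so it is no independent support. Some of its genes share sequence with the 39. Of the 75-base windows of Oas1a 47.6% occur in Oas1g, of those of Tgtp2 85.2% in Tgtp1 and of those of Ifit1 5.19% in Ifit1bl2. Of 75 in the files, 71 were tested, and in high against low gels 38 fell (8.73% of all genes did) and 1 rose (6.72% did) in the blocked fit, at a median of -0.79, while 0 passed without the number. The gene with the smallest adjusted p without the number was Ifit1bl2, an Ifit1-like gene, with 42.7, 56.2 and 60.5 CPM in low, 15.2, 32.4 and 31.4 CPM in middle, and 14.6, 16.2 and 16.1 CPM in high gels. Its 3 high libraries were close together and far below the low ones, and it fell by 1.75 ± 0.16 (adjusted p = 0.000161). Ifit1bl1, Ms4a4c, Apol9b, Tor3a, Phf11d, Ube2l6 (the ISG15-conjugating enzyme) and Oas1g, next in that order, all fell, by 0.65 to 1.99 on the log2 scale. The 1 that rose was Ifitm2, a membrane protein that hinders viral entry, with 865.7 and 1012 CPM in high 2 and high 3 against 573 and 574 CPM in low 2 and low 3. In number 1 it had 180.0 CPM in the high and 137 CPM in the low gel (0.61 ± 0.09, adjusted p = 0.00195).

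The ligands were barely detected and the receptors differed little between gels. Of 21 interferon genes in the files, 10 had no count in any library, and only Ifnb1, with 112 counts in all, was tested. Ifnb1, interferon beta, had 0.355, 0.622 and 1.23 CPM in high and 1.43, 0.813 and 0.784 CPM in low gels, and the groups overlapped (adjusted p = 0.666). Ifng, interferon gamma, had 28 counts over all libraries and was not tested. Type I receptor chains Ifnar1 and Ifnar2 had log2 fold changes of 0.10 ± 0.09 and 0.01 ± 0.08 in high against low gels, and the interferon gamma receptor chains Ifngr1 and Ifngr2 had 0.23 ± 0.09 and -0.03 ± 0.08, none of which passed (adjusted p of 0.122 to 0.92). Ifnar1 had 175, 335 and 322 CPM in high and 188, 289 and 284 CPM in low gels, which overlapped.

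The signalling genes that passed went in both directions, the falls above the share of all genes and the rises near it. Of 54 genes of the ligand, receptor and signalling list in the files, 34 were tested, and in high against low gels 6 fell (8.73% of all genes did) and 3 rose (6.72% did) at a median of -0.10, with 0 passing without the number. Among those that fell were Tlr3 and Tlr7, the endosomal sensors of double- and single-stranded RNA, by 1.09 ± 0.16 and 0.80 ± 0.10, and the interferon regulatory factors Irf4, Irf5 and Irf8 fell by 0.69, 0.49 and 0.70. Socs3, the feedback inhibitor of JAK kinases, had 178, 329 and 398 CPM in high and 118, 153 and 138 CPM in low gels. Every high library was above every low library, and Socs3 rose by 1.07 ± 0.15 (adjusted p = 0.00159). Ikbke, a kinase of interferon regulatory factors, rose by 0.88 ± 0.11 and Ptpn6, the phosphatase SHP-1, by 0.44 ± 0.09. The kinases Jak2 and Tyk2, the adaptors Myd88 and Ticam1, and the DNA sensor Cgas had log2 fold changes of 0.40, 0.22, 0.28, -0.35 and -0.52 and did not pass.

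The motif matches did not sort the genes by the size of their change. The 19 genes with an ISRE-type match had a median log2 fold change of -0.97 in high against low gels, and the 12 genes with a window but no such match had -1.16. The 9 with a GAS-type match, Bst2, Tgtp2 and Irf1 among them, had -0.84, and the 22 without had -1.13. Cxcl10, whose stretch printed above holds an ISRE-type match, was the only gene of the 39 with a positive value, and Tgtp2, which holds both, had -2.07. These medians are descriptions and were given no test.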

How the data were processed

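RNA was measured in 9 libraries, 3 per gel. Each deposited file holds the authors' raw counts per gene, their FPKM and, in a column of another unit, the exonic gene size in bases. Per the submitters' processing notes, reads went through tools that include HISAT2 2.0.1, HTSeq 0.6.1, cutadapt 1.9.1 and a DESeq2 of unstated version, with GRCm39 as genome build. Not given in the sources used here is the strand setting, so overlapping genes may share reads. The deposited FPKM, recomputed from counts and sizes, differed by at most 0.0050 and was used for levels per length and as an alternative.

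Counts of all genes were filtered with filterByExpr, scaled by TMM and fitted with edgeR 4.0.16 (quasi-likelihood, R 4.3.3) over the 9 libraries, with two-sided contrasts, Benjamini-Hochberg adjustment over all 12094 tested genes and a threshold of 0.05. The fit without the replicate number is the main one. Single-gene log2 fold changes, standard errors and adjusted p over all libraries come from the blocked fit unless another is named. CPM values are TMM-scaled. The standard error is the log2 fold change over the square root of its F statistic. Depth was 13172879 to 19486546 counts per library. The steps were tested on simulated counts whose gel effect was the same in every number, so that test does not cover other cases.

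The labels number the replicates but do not say what a number shares. After removal of group means, the 9 same-number pairs correlated at 0.595 to 0.856, which met the condition for fitting the number as a block; numbers 2 and 3 correlated at 0.552 to 0.698 across numbers, and number 1 with 2 or 3 at -0.777 to -0.650. Number 1 standing apart in all gels gives such correlations by itself, so they do not show that a number pairs gels. The biological coefficient of variation was 0.337 without and 0.115 with the block. Libraries of 1 group differed by more than counting noise and were all kept as separate samples.

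The members and gene lists were chosen with earlier results of these data known. Every member could be named, with per-library values for the 2 most abundant of each class; values for the other members given in full, and the signalling genes Irf4, Irf5, Irf8, Ikbke and Ptpn6 and Ifitm2, were chosen after theirs were seen. From the pathway lists the 8 smallest adjusted p for high against low, the receptors, Ifnb1 and Ifng were named; 1 result is not reported here. Alternatives were DESeq2 1.42.0 (size factors and Wald test), no low-count filter, FPKM, the block and libraries or numbers left out. Fits that leave libraries out of the blocked model, and DESeq2 with the block, were chosen after seeing the data. Shared 75-base windows were counted in GENCODE M21 transcripts.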

Additional observations from a re-analysis of the deposited data

How the results depend on the processing

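With the replicate block 12 genes passed in high against low gels and 2 in middle against low gels, where the fit without it gave 0 and 0. DESeq2's Wald test gave 5 (1.29% of all genes) and 1 (0.24%), and with the replicate block 29 (8.91%) and 15 (2.46%). No blocked fit of all libraries called a gene in high against middle gels. Leaving out libraries or numbers, without or with the block, gave 0 to 33 calls in high against low gels. It gave 0 to 18 in middle against low and 0 to 10 in high against middle gels. The share of all genes called lower moved with the setting too. The blocked fit gave 33 calls without number 1 (14.1% of all genes) and 33 without low 1 (10.7%). The 18 and the 10 calls came from the blocked fit without number 1 (3.58% and 3.68% of all genes). Without the block and without number 2, each comparison gave 0 calls (0% of all genes). The median log2 fold change of the interferon-stimulated genes stayed below 0 in every setting run for high against low (-1.35 to -0.53) and middle against low gels (-0.99 to -0.32). For high against middle gels that median ranged from -0.63 to 0.0348, the highest without high 1.

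In high against low and in middle against low gels, single genes changed sign only when libraries were left out. For high against low they were Cxcl10 (-0.25 to 0.58) and Ifih1 (-1.11 to 0.0207). For middle against low they were Cxcl10 (-0.54 to 0.12), Gbp7 (-0.87 to 0.0722), Ifih1 (-0.75 to 0.0816) and Zbp1 (-0.71 to 0.0604). In high against middle gels 23 of the 39 genes changed sign in some setting, 20 of them without high 1, and 1 of them, Parp14, also with another scaling or filter. The count of genes in number 1 that differed from number 2 was 18, with 9 when no low-count filter was used and 8 to 35 when libraries were left out; against number 3 it was 21, with 10 to 35. The count with every high library below every low library was 24 to 36 in all settings. Leaving libraries out makes that rule easier to meet, so the range is no measure of how stable the count is. For these number and overlap counts, shares over all genes are not given here for the changed settings. The causes were not tested. Libraries 2 and 3 of a gel differed by 5.03 to 11.31 in chi-square per degree of freedom over all genes. Library 1 differed from either by 137.5 to 202.6. Both ranges are more than counting noise over all genes. How far depth limited the precision of single genes with few counts was not tested.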
